A study of Mus musculus with 9 samples.

Results

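Complement genes were followed in the mouse mammary gland over 4 stages of its cycle. The genes were C1qa, C1qb, C1qc, C2, C3, C4b, Cfb and C3ar1, and every probe set that the array's annotation gives to one of these 8 symbols was taken. There were 11 such probe sets among the 12422 of the array that are not controls, and they covered 7 of the 8 genes. C3 had no listed probe set and was not analysed here. Of the 11 probe sets, 9 carried 1 symbol and 2 carried both C4a and C4b, near-identical genes whose transcripts these probe sets cannot tell apart.

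RNA came from the whole inguinal gland (number 4) of C57BL/6J female mice, an inbred wild type strain. Puberty was covered by 3 arrays (virgin mice, aged 6 weeks), pregnancy by 2 arrays (day 14), lactation by 2 arrays (day 10 after birth) and involution by 2 arrays (day 4 after weaning), and each array was a biological replicate. The whole gland holds the fat pad, vessels and leukocytes beside the epithelium, so a lower signal from fewer cells of a type and one from less RNA per cell cannot be told apart. Milk protein transcripts followed the stage labels in their summed signal over 8 genes. It was 2793 to 4871 at puberty, 32158 and 33634 at pregnancy, 152180 and 197780 at lactation and 22056 and 23645 at involution. Single genes differed between the puberty arrays, with Wap at 4.09, 696 and 436 and Csn2 at 4.86, 238 and 171. Glycam1 stood at 2348, 2679 and 2442 on these arrays.

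Complement is a cascade of plasma proteins that tags particles and dying cells for uptake and can pierce membranes. C1q, built of A, B and C chains, recognises its target and starts the classical pathway, in which C4 and C2 are cleaved to form the convertase of C3. Factor B, the product of Cfb, plays the part of C2 in the alternative pathway, and C3ar1 is the receptor of the C3a fragment. In mice, C1q is made mainly by macrophages and related myeloid cells, and the involuting gland is known for the clearance of dying milk-producing cells.

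Complement genes were lowest or near their lowest at lactation and highest at involution for C1qb, C1qc, C2 and C3ar1, whereas the C4 probe set was lowest at pregnancy and C1qa averaged 633 at involution and 562 at lactation, below its other stages. A probe set was called where its p-value from limma, after the Benjamini-Hochberg adjustment over all 9783 that were tested, was below 0.05. Of the 11 complement probe sets, 8 passed the filter, a mean signal above 20 in at least 1 stage, and 6 of the 8 were called in the F test over the 4 stages, beside 51.6% of all tested probe sets. The other 3 were second probe sets of C2, C4 and Cfb, with signals of 5.43 to 13.9, 0.379 to 2.12 and 3.02 to 27.2, and they were not tested.

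**Figure D1:**
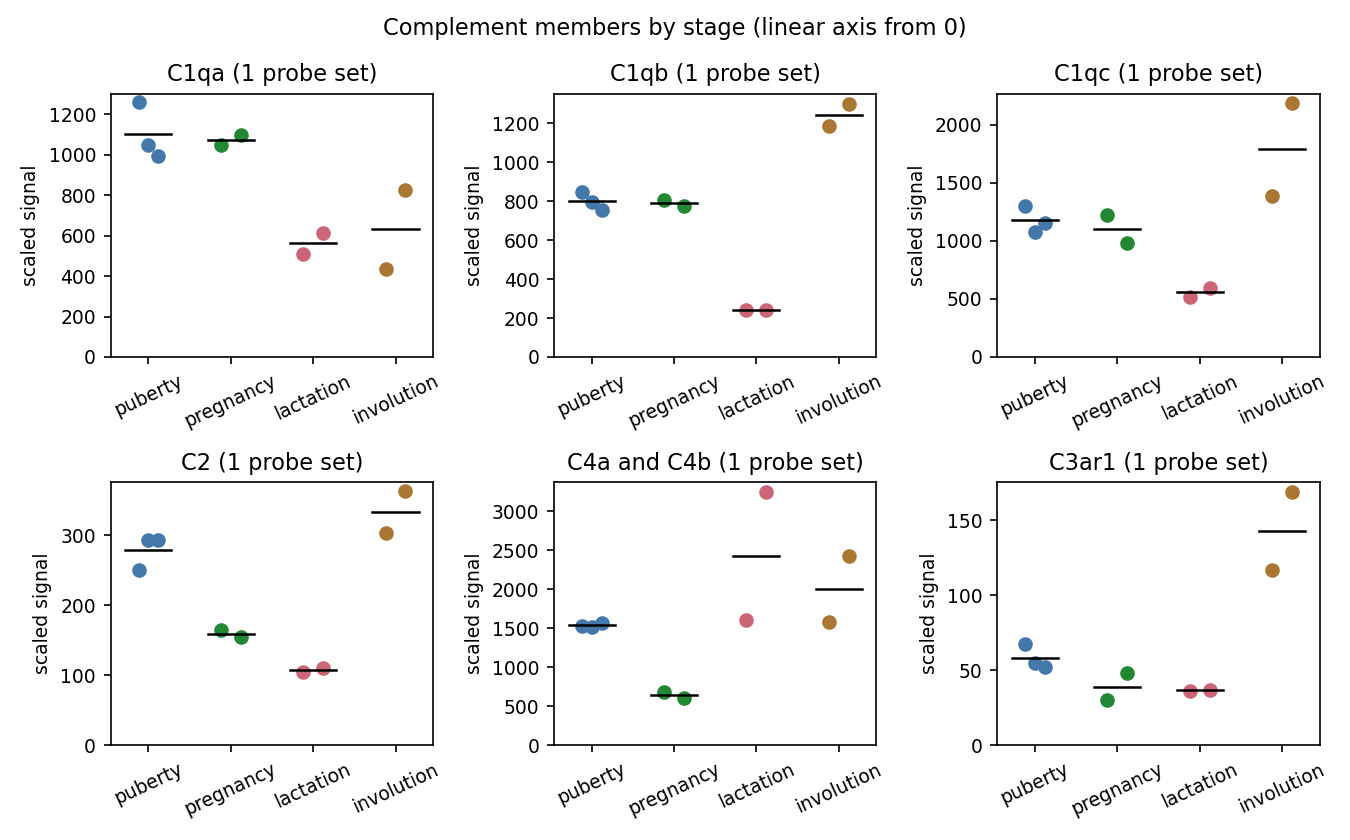
Signal of the 6 complement probe sets called in the F test, with 1 point per array and a bar at the stage mean, on linear axes from 0 with arrays scaled to equal medians. C1qb, C1qc, C2 and C3ar1 stood highest at involution, C1qa was low at lactation and involution, and C4 was lowest at pregnancy.

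At lactation against pregnancy 1 of the 8 tested complement probe sets rose and 4 fell, beside 21.6% and 19.7% of all tested probe sets. At involution against lactation 4 rose and 0 fell, beside 22.1% and 23% of all. At lactation against puberty 0 rose and 4 fell, beside 26.1% and 21.8%. The median log2 difference of the 8 was -0.31 at lactation against pregnancy, 0.92 at involution against lactation and -0.81 at lactation against puberty, and that of all tested probe sets was 0.067, -0.032 and 0.089 in the same order. The members called in either direction, 5, 4 and 4 of 8, stand beside 41.2%, 45.1% and 47.8% of all tested, and for the last 2 comparisons that is near the background. All of these comparisons draw on 1 set of 9 arrays, so they share stages and are not separate evidence.

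The other comparisons called fewer probe sets on the whole array. At pregnancy against puberty 0 of the 8 rose and 2 fell, beside 6.2% and 5.22% of all tested. At involution against puberty 2 rose and 0 fell, beside 4.39% and 3.1%. At involution against pregnancy 4 rose and 0 fell, beside 4.03% and 3.1%. The median log2 difference of the 8 was -0.23, 0.30 and 0.66, and that of all tested probe sets was 0, 0.046 and 0. With 8 probe sets, 2 of them for C1qb, these counts describe the members and were given no test of their own. Under the deposited scale, without equal medians, 46.5% of the calls at involution against puberty and 45.5% of those at involution against pregnancy were rises, against 58.6% and 56.5% with equal medians, and the counts of complement probe sets that rose or fell did not change.

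The recognition molecule came first in the cascade. C1qb had signals of 847, 795 and 758 at puberty, 807 and 774 at pregnancy, 243 and 242 at lactation and 1188 and 1301 at involution. Pregnancy overlapped puberty, both lactation arrays were below every other array and both involution arrays were above every other array. C1qb fell at lactation to 243 ± 0.921 (SD, n = 2), against 791 ± 23.6 (SD, n = 2) at pregnancy, a log2 difference of -1.70 (SE 0.121, adjusted p = 3.4e-05). It then rose to 1245 ± 80.1 (SD, n = 2) at involution, a log2 difference of 2.36 against lactation (SE 0.121, adjusted p = 9.52e-06), or 5.12-fold. Involution was also above puberty, by 0.64 (adjusted p = 0.0109), and above pregnancy, by 0.65 (adjusted p = 0.0171). The first of these calls was lost without the second involution array (adjusted p = 0.0605), and the second without either pregnancy array (0.0642 and 0.0859) or the second involution array (0.0582). Its levels ran lactation, pregnancy, puberty, involution from low to high, and of the neighbours in that order only puberty and pregnancy were not called apart (pregnancy against puberty, log2 difference -0.015, SE 0.110).

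C1qc had signals of 1297, 1079 and 1149 at puberty, 1223 and 978 at pregnancy, 519 and 592 at lactation and 1387 and 2185 at involution. The lactation arrays were again below, and the involution arrays above, all others. C1qc fell at lactation to 556 ± 51.4 (SD, n = 2), against 1100 ± 173 (SD, n = 2) at pregnancy, a log2 difference of -0.98 (SE 0.222, adjusted p = 0.00821). That call was lost without the first pregnancy array (adjusted p = 0.0737) or the first lactation array (0.0805). At involution it rose to 1786 ± 564 (SD, n = 2), a log2 difference of 1.65 against lactation (SE 0.222, adjusted p = 0.000525), and the call held without any single array. The excess of involution over puberty, 0.57 on the log2 scale (adjusted p = 0.137), and over pregnancy, 0.67 (adjusted p = 0.114), did not pass with all arrays and passed without the first involution array (adjusted p = 0.0399 and 0.0417). From low to high its order was lactation, pregnancy, puberty, involution, with no call between the upper 3.

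C1qa had signals of 1262, 1051 and 993 at puberty, 1049 and 1096 at pregnancy, 510.5 and 614 at lactation and 437 and 828 at involution. Both lactation and both involution arrays were below all arrays of puberty and pregnancy, and the involution arrays lay on either side of the lactation arrays. C1qa fell at lactation to 562 ± 73.3 (SD, n = 2), against 1073 ± 33.3 (SD, n = 2) at pregnancy, a log2 difference of -0.94 (SE 0.271, adjusted p = 0.0231). The call was lost without any one of the 4 arrays of these stages (adjusted p = 0.0856 to 0.172). At involution its mean was 633 ± 277 (SD, n = 2), 0.10 above lactation on the log2 scale (SE 0.271, adjusted p = 0.785), 0.87 below puberty (a log2 difference of -0.87, adjusted p = 0.0728) and 0.83 below pregnancy (a log2 difference of -0.83, adjusted p = 0.107). Without the second involution array both of the last differences passed, at -1.33 (adjusted p = 0.0211) and -1.30 (adjusted p = 0.0288). The order from low to high was lactation, involution, pregnancy, puberty, and no pair of neighbours in it was called with all arrays, although the arrays of involution and pregnancy did not overlap. Lactation against puberty was called, at -0.97 (adjusted p = 0.0113), though not without the first (adjusted p = 0.131) or the second lactation array (0.0631).

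The 3 chains of C1q all fell at lactation, C1qb more than the other 2, and at involution C1qb and C1qc were called above lactation while C1qa was not. The log2 ratio of 2 probe sets within an array, in which scaling between arrays cancels, shows where the chains parted. It was chosen after the values were seen and is given as a description, with no test. At involution the ratio of C1qb to C1qa was 1.44 and 0.65, against -1.34 to -0.38 on the other 7 arrays, and that of C1qc to C1qa was 1.67 and 1.40, against -0.16 to 0.22. At lactation the ratio of C1qb to C1qa was -1.07 and -1.34, below all other arrays, and that of C1qc to C1qb was 1.09 and 1.29, above all others. The ratio of C1qc to C1qa at lactation, 0.024 and -0.053, lay within the range of puberty and pregnancy. The involution arrays differed most in C1qa, 437 and 828, and each chain rests here on 1 bright probe set.

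**Figure D2:**
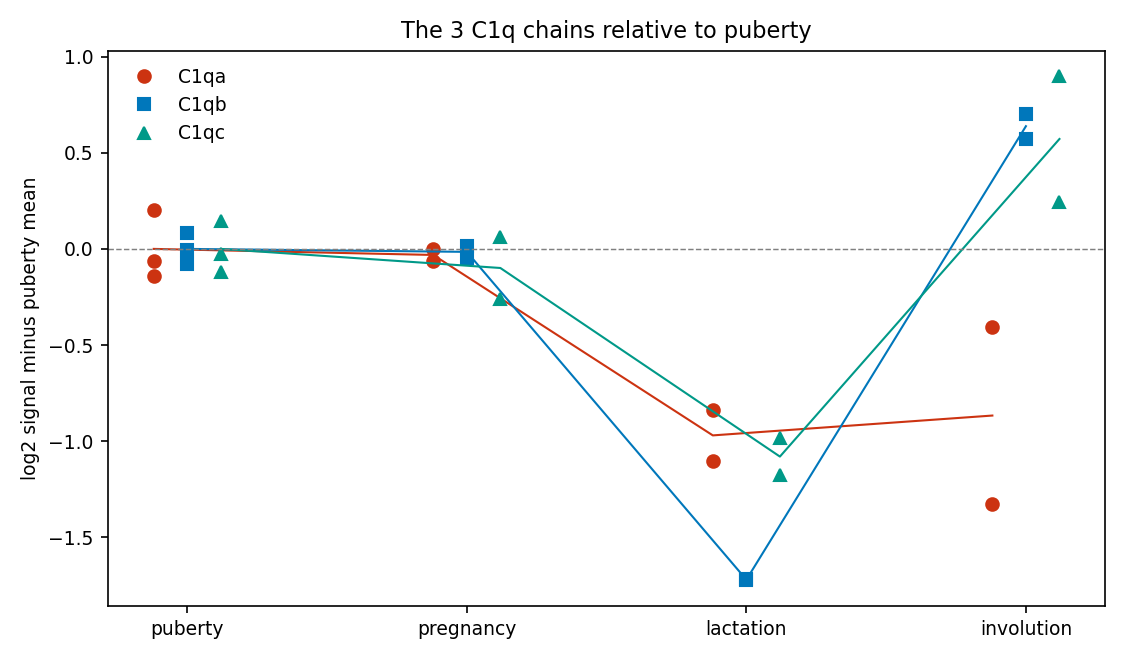
Log2 signal of the bright probe sets of C1qa, C1qb and C1qc minus the mean of each at puberty, with 1 point per array and lines through the stage means. The chains overlapped up to pregnancy, all fell at lactation, and at involution C1qb (0.57 and 0.70) and C1qc (0.24 and 0.90) stood above puberty while C1qa (-1.33 and -0.40) stood below it.

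A second, dim probe set of C1qb did not follow the bright one. Its signals were 54.5, 46.6 and 64.0 at puberty, 50.4 and 49.3 at pregnancy, 38.8 and 77.7 at lactation and 42.7 and 46.9 at involution. The stages overlapped except at involution against pregnancy, and it was not called in the F test (adjusted p = 0.801). Without the first lactation array it was called lower at involution than at lactation (log2 difference -0.80, adjusted p = 0.0425), the opposite direction to the bright probe set. The design letter of this probe set (i) is the array maker's mark for a sequence with fewer unique probes than its design asks, and the results on C1qb rest on the bright probe set alone.

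The genes of the C1q chains are neighbours on chromosome 4, in the order C1qb, C1qc and C1qa with 0 annotated genes between them. RefSeq's promoter table of GRCm38.p6 held entries for 4 of the 8 genes, and the 250 bases before the start of C1qb (chr4:136886201-136886450) and C1qc (chr4:136892915-136893164), both on the minus strand, are shown because these chains rose together at involution. C3ar1 (chr6:122856158-122856407, minus strand) is shown as the member with the lowest signals among those that rose there. Each is written 5′ to 3′ and ends at the base before the start, with the motifs found in capitals.
C1qb: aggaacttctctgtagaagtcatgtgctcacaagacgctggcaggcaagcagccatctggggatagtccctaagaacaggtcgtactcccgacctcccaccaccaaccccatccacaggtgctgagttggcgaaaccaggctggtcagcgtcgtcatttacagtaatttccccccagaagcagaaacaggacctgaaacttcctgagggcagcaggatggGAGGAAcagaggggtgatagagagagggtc
C1qc: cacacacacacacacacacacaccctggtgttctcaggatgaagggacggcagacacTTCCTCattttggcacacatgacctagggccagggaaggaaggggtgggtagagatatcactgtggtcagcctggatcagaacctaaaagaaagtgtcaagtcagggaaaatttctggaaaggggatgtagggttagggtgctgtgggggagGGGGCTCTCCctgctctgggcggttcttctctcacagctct
C3ar1: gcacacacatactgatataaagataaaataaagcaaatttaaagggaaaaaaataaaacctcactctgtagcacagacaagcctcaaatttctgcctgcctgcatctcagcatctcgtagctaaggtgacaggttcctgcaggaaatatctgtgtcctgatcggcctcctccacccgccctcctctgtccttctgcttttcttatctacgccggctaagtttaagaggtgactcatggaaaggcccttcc
The motifs searched on both strands were the PU.1 core GAGGAA, the STAT motif TTCNNNGAA, the IRF motif GAAANNGAA and the kappa B consensus. PU.1 is a transcription factor of myeloid cells, and STAT, IRF and NF-kappa B factors respond to cytokines and infection. Spi1, the gene of PU.1, had signals of 131, 116 and 120 at puberty and 74.4 and 63.8 at pregnancy. Its signals at lactation, 95.9 and 85.1, overlapped those at involution, 92.1 and 128.6. The C1qb window held 1 PU.1 core, on the forward strand 30 to 25 bases before the start. The C1qc window held 1 PU.1 core on the reverse strand, 193 to 188 bases before the start, and 1 kappa B match, 41 to 32 bases before it, and the matches did not overlap. The C3ar1 window held none of the 4 motifs. Of all 32851 promoters in the table, windows of the same length held the PU.1 core in 23.3%, STAT in 7.02%, IRF in 7.13% and kappa B in 7.25%. A match is only a match of letters, and none of these data measure binding.

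C2, the protease that C1 cleaves to build the convertase, had signals of 250.1, 293 and 293 at puberty, 164 and 155 at pregnancy, 105 and 111 at lactation and 304 and 363 at involution. No stage overlapped another. C2 was lower at pregnancy than at puberty, 160 ± 6.72 (SD, n = 2) against 279 ± 24.7 (SD, n = 3), a log2 difference of -0.80 (SE 0.146, adjusted p = 0.00993). It fell further at lactation, by 0.57 on the log2 scale against pregnancy (SE 0.160, adjusted p = 0.0212), and rose to 333 ± 42.3 (SD, n = 2) at involution, a log2 difference of 1.62 against lactation (SE 0.160, adjusted p = 0.000113) and 1.06 against pregnancy (adjusted p = 0.00741). The rise over lactation held without any single array. The fall at pregnancy was lost without the first (adjusted p = 0.0532) or second pregnancy array (0.0850), the fall at lactation without either pregnancy array (0.0893 and 0.0554) or the first lactation array (0.0568), and the rise over pregnancy without the second pregnancy array (0.0613). From low to high the order was lactation, pregnancy, puberty, involution, with only the top pair not called (log2 difference 0.26, adjusted p = 0.347).

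C4, the other source of the classical convertase, went its own way. The probe set of C4a and C4b had signals of 1534, 1514 and 1567 at puberty, 682 and 603 at pregnancy, 1607 and 3243 at lactation and 1585 and 2425 at involution. Both pregnancy arrays were below every other array, and the lactation and involution arrays overlapped. C4 fell at pregnancy to 643 ± 56.2 (SD, n = 2), against 1538 ± 26.8 (SD, n = 3) at puberty, a log2 difference of -1.26 (SE 0.283, adjusted p = 0.0227). At lactation it rose to 2425 ± 1157 (SD, n = 2), a log2 difference of 1.83 against pregnancy (SE 0.310, adjusted p = 0.00206), where the other called members fell. The lactation arrays lay far apart, and the difference was 2.34 without the first of them and 1.33 without the second, called in both cases. Involution was 1.61 above pregnancy (adjusted p = 0.0202) and 0.22 below lactation (a log2 difference of -0.22, adjusted p = 0.591). The fall at pregnancy was lost without any one of the 5 arrays of its stages (adjusted p = 0.0618 to 0.203), as was the rise of involution over pregnancy without either pregnancy array (0.115 and 0.148) or the second involution array (0.125). From low to high the order was pregnancy, puberty, involution, lactation, with no call between the upper 3, except that lactation passed against puberty without the first lactation array (log2 difference 1.08, adjusted p = 0.0211).

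Cfb lies beside C2 on chromosome 17, with 0 protein-coding genes between them, and did not share its profile. Its signals were 21.3, 19.3 and 41.9 at puberty, 15.9 and 21.7 at pregnancy, 32.1 and 21.8 at lactation and 42.4 and 22.2 at involution. These values lie at or just above the floor of 20 under which signals were not resolved, and 2 arrays were under it. Arrays of 1 stage differed about as much as the stages, and Cfb was not called in the F test (adjusted p = 0.658), so no change was detectable at this signal. Its stage means, from low to high, ran pregnancy (18.8), lactation (27.0), puberty (27.5) and involution (32.3), with no call between any of them.

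C3ar1, the receptor, had signals of 67.6, 55.2 and 52.3 at puberty, 30.4 and 48.0 at pregnancy, 36.3 and 37.1 at lactation and 117 and 168 at involution. Both involution arrays were above all others, and lactation lay within the range of pregnancy. C3ar1 rose to 143 ± 36.4 (SD, n = 2) at involution, against 36.7 ± 0.534 (SD, n = 2) at lactation, a log2 difference of 1.94 (SE 0.303, adjusted p = 0.00116), or 3.82-fold, which held without any single array. It was also above pregnancy, by 1.88 (adjusted p = 0.0098), and above puberty, by 1.28 (adjusted p = 0.0276). The call against pregnancy was lost without the first pregnancy array (adjusted p = 0.0717) or the second involution array (0.0630). The call against puberty was lost without any one array of puberty (0.0563 to 0.0830) or lactation (0.0733 and 0.0769), or without the second involution array (0.175). From low to high the order was lactation, pregnancy, puberty, involution, with no call among the lower 3.

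**Figure D3:**
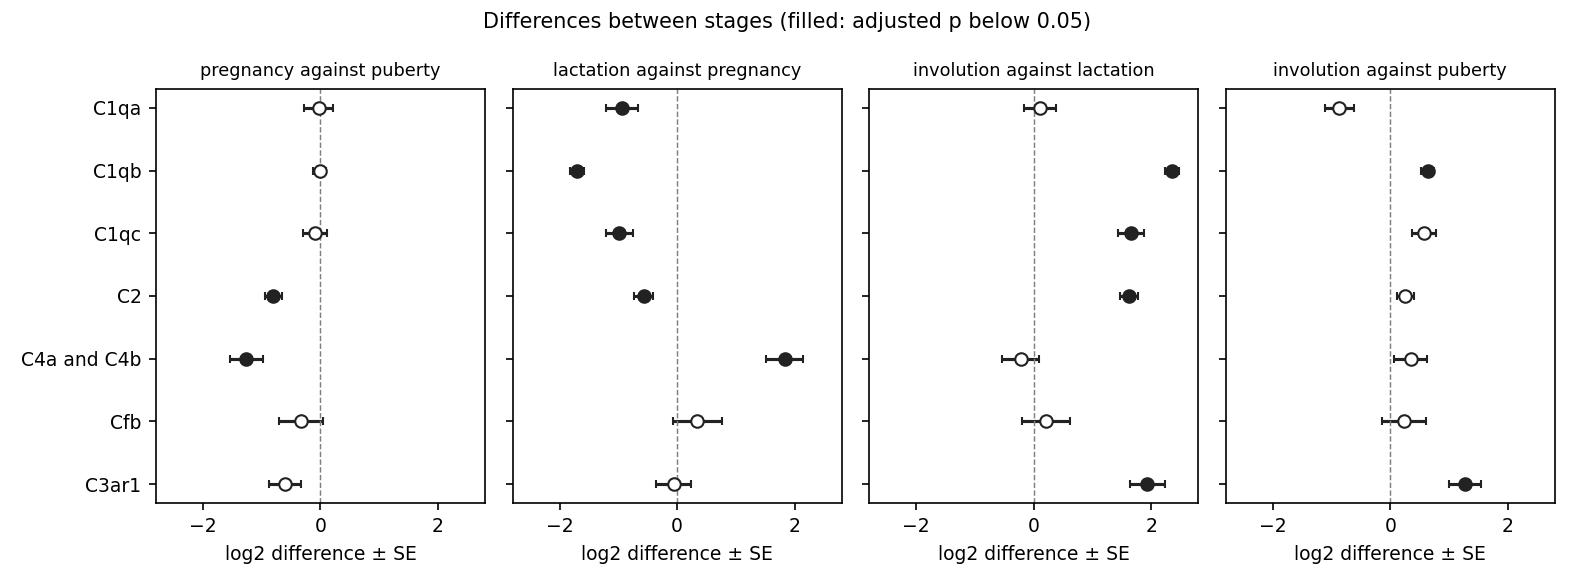
Log2 difference of each complement gene (bright probe set) in 4 comparisons of stages, the later stage minus the earlier, with the standard error of the fit as bars and filled points where the adjusted p was below 0.05. C1qb, C1qc, C2 and C3ar1 lay right of 0 at involution against lactation, C4 lay right of 0 at lactation against pregnancy, and Cfb was not called in any.

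Across the 9 arrays the log2 values of the members fell into no single pattern. As a description over arrays that share their stages, Pearson's r was 0.951 between C1qb and C1qc, 0.871 between C1qb and C2 and 0.877 between C1qc and C2. C1qa had r of 0.367 with C1qb and 0.353 with C1qc, and C4 had r of -0.295 with C1qb. Among all tested probe sets with 1 symbol, the genes most like each member over the 9 arrays were Vwf, the clotting carrier of endothelium (0.993), Gpr137b-ps and Anxa1 for C1qb, Polr2a (0.986), Nbl1 and Arpc2 for C1qc, and Tomm40 (0.948), Lamb1 and Cldn4 for C1qa. For C2 they were Gadd45b (0.991), Selplg and Fgfr2, for C3ar1 Mmp9, a matrix protease (0.966), Ptx3 and 2700097O09Rik, for C4 Vmp1 (0.964), Cltb and Trp53inp2, and for Cfb Chrnd (0.865), Aamdc and Cyp1a1. No gene was among the 3 nearest of more than 1 member.

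The rest of the complement system was read from lists of 49 gene symbols, some of them aliases, of the classical, lectin, alternative and terminal pathways, regulators and receptors. The array held 28 of them by a probe set of 1 symbol, 22 were tested by their brightest probe set, and 14 were called in the F test, beside 51.6% of all tested probe sets. At lactation against pregnancy 5 of the 22 rose and 7 fell (21.6% and 19.7% of all tested), at involution against lactation 8 rose and 5 fell (22.1% and 23%), and at lactation against puberty 6 rose and 8 fell (26.1% and 21.8%). The genes that rose at lactation and those that fell at involution were near the share of the whole array. Of the 22, 4 passed the filter through 1 stage only, Mbl1, Mbl2 and C9 through lactation and Itgam through puberty, so the counts are a description. Few moved elsewhere, with 1 up and 2 down at pregnancy against puberty (6.2% and 5.22% of all tested), 2 up and 0 down at involution against puberty (4.39% and 3.1%), and 3 up and 0 down at involution against pregnancy (4.03% and 3.1%). The median log2 difference was -0.014 at lactation against pregnancy and 0.17 at involution against lactation.

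Genes that fell at lactation against pregnancy and rose at involution against lactation included the protease and inhibitor of C1. C1ra, which encodes the protease that C1q activates, had signals of 83.3 and 95.5 at lactation, against 187 and 215 at pregnancy, a log2 difference of -1.17 (adjusted p = 0.00157), and 320 and 415 at involution, a difference of 2.03 against lactation (adjusted p = 8.58e-05). Serping1, the C1 inhibitor, fell by 1.14 (adjusted p = 0.00412) and rose by 2.29 (adjusted p = 0.00011) in the same comparisons. Cfp, properdin of the alternative pathway, fell by 1.32 and rose by 1.68, and the membrane regulator Cd59a fell by 1.01 and rose by 2.12. Of the receptors, Itgb2, the beta chain of the leukocyte complement receptors, fell by 0.86 at lactation and rose by 2.69 at involution, and Cd93 fell by 1.41 and rose by 1.54, all of these past the threshold. Mean signals at involution were not called against puberty or pregnancy for Cfp (258, against 265 and 201) or Cd93 (201, against 177 and 183). The same held for Cd59a (464, against 236 and 220). Serping1 (1144, against 819 at puberty) and Itgb2 (218, against 149 at puberty) were called at involution above pregnancy but not above puberty. Itgb2 was already lower at pregnancy than at puberty (log2 difference -1.28, adjusted p = 0.00855). The brightest probe set of C1ra is marked (f) as shared within a family, and the second probe set of C1ra moved in the same directions, at -1.03 and 1.54. The second carries the mark (i), as the dim probe set of C1qb does. At involution it averaged 189, against 202 at puberty, where the brightest averaged 368, against 236, and neither difference was called.

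By their brightest probe sets, Clu, Cr1l, C1qbp and C9 were highest at lactation, while Vtn and Itgax were not. Clu, clusterin, a secreted regulator of the terminal complex, had signals of 4484 and 4729.5 at lactation, against 1161 and 1348 at pregnancy, a log2 difference of 1.88 (adjusted p = 0.00016), and it fell by 1.94 at involution against lactation (adjusted p = 9.22e-05). Its second probe set rose by 2.01 and fell by 1.87. Cr1l, the mouse gene of a membrane regulator, rose by 0.88 and fell by 0.69, and C1qbp, whose product binds C1q heads, had signals of 112 and 77.2 at lactation, against 22.5 and 7.77 at pregnancy, near or under the floor, and fell by 1.55 at involution against lactation. The second probe sets of Cr1l and C1qbp were not called in either comparison (log2 differences 0.12 and 0.11 for Cr1l, -0.063 and -0.29 for C1qbp). C9, of the membrane pore, was at or under the floor of 20 on all arrays but those of lactation, 83.1 and 38.2, a fold of at least 2.82 over pregnancy. It passed the filter only through lactation, so no test is given. Vtn, vitronectin, was under the floor on both lactation arrays and was at least 3.71-fold lower there than at puberty (adjusted p = 0.00133), and it was lower at pregnancy as well, where its signals of 20.5 and 20.3 were just above the floor (adjusted p = 0.00742). Itgax, the alpha chain of a receptor of dendritic cells and macrophages, was 202 at involution, against 88.6 at puberty, a log2 difference of 1.19 (adjusted p = 0.00954).

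**Figure D4:**
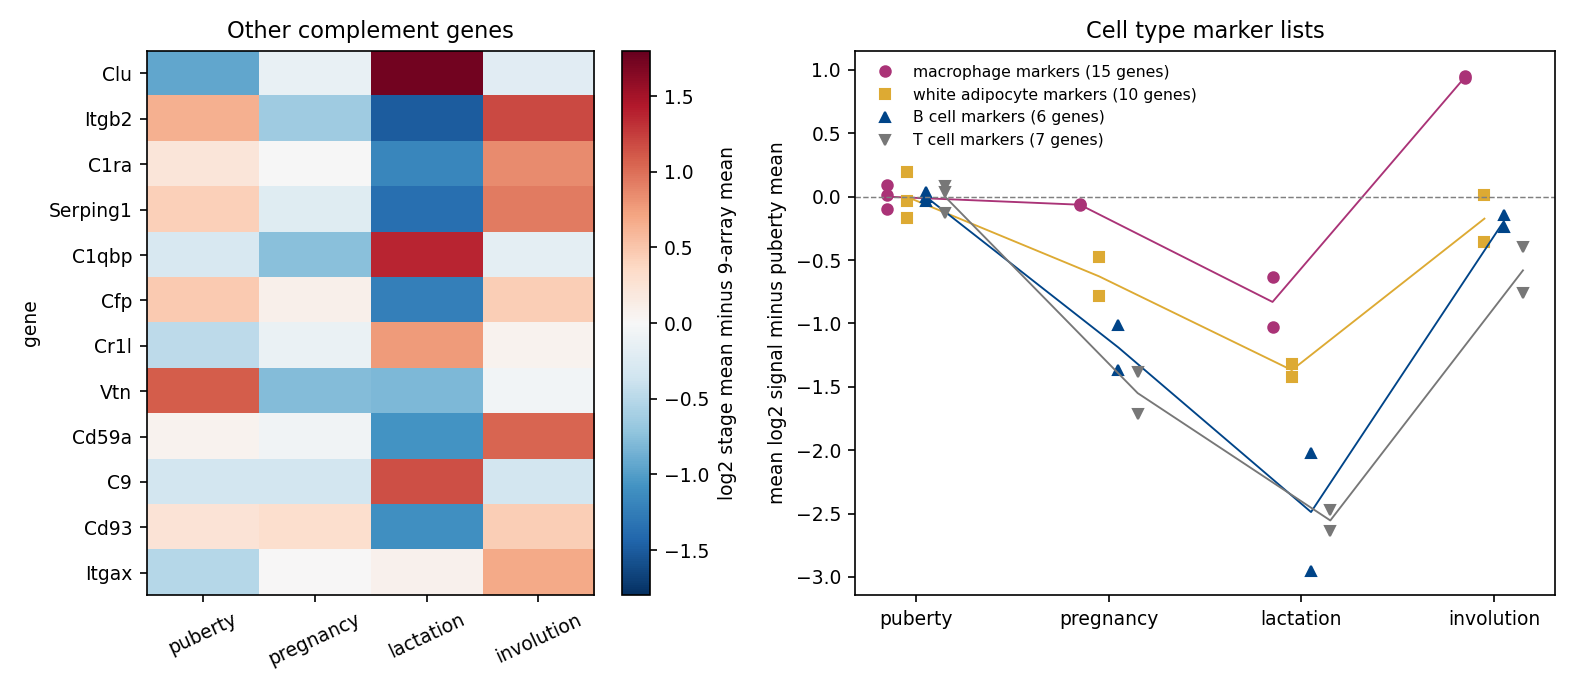
Left, log2 stage means minus the 9-array mean for the 12 other complement genes with the smallest F p-values. C9 passed the filter only through lactation, where it was high, so its place among them is a description. Right, mean log2 signal of 4 cell type marker lists minus the puberty mean, with 1 point per array and lines through the stage means; the macrophage list stood at 0.93 and 0.96 at involution and at -1.03 and -0.64 at lactation.

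Macrophage markers were, as a list, low at lactation and high at involution, as C1qb, C1qc and C2 were. Of 15 macrophage markers tested, 0 rose and 8 fell at lactation against pregnancy, beside 21.6% and 19.7% of all tested probe sets. At involution against lactation 12 rose and 0 fell, beside 22.1% and 23% of all tested. At involution against puberty 8 rose and 0 fell, beside 4.39% and 3.1%. The summed signal of the list was 4406 to 5025 at puberty, 4482 and 4681 at pregnancy, 2087 and 3302 at lactation and 10002 and 12203 at involution. Csf1r, the receptor that macrophages need to survive, had signals of 444, 531 and 467 at puberty, 389 and 359.7 at pregnancy, 119.8 and 191 at lactation and 934 and 1107 at involution. Cd68, a lysosomal protein, rose by 2.09 and Adgre1, the F4/80 antigen, by 1.11 at involution against lactation. Not all of the list was low at lactation, where Adgre1 stood at 62.3 and 114.7, against 62.2 and 73.5 at pregnancy, and Cd14, a receptor for bacterial lipopolysaccharide, at 888 and 1596, against 719.6 and 719.2 at pregnancy, neither of them called. None of the 3 defining markers was under the floor on any array. The part of the macrophage share in the complement results was not tested.

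Markers of other cells were also called between stages. Beside them stand 21.6% up and 19.7% down of all tested probe sets at lactation against pregnancy. At involution against lactation the shares were 22.1% and 23%. Of 10 white adipocyte markers 2 rose and 6 fell at lactation against pregnancy and 7 rose and 1 fell at involution against lactation. Adipoq stood at 956 and 1049 on the lactation arrays, against 3773 and 2860.2 at pregnancy. Lep, at 290 and 435, overlapped pregnancy (379 and 486). Agt was higher at lactation (919 and 508, against 71.7 and 82.9). Lpl (4086 and 3556.5, against 2092 and 1840) and Pnpla2 (3020.5 and 3082, against 2631 and 1734) were also higher there. Pnpla2 was not called in the F test (adjusted p = 0.0612), and its lactation signals were below those at puberty (3948, 4063 and 5279). The summed signal of the adipocyte list was 16756 to 22275 at puberty, 13829 and 9785.5 at pregnancy, 9966 and 9539.6 at lactation and 16857 and 20268 at involution. The 6 B cell markers (0 up, 4 down) and 7 T cell markers (0 up, 4 down) were also low at lactation against pregnancy, and all 6 and all 7 rose at involution against lactation. Their summed signals were 321 and 678 (B cell) and 218 and 304 (T cell) at lactation, the lowest of the 4 stages, and 2170.5 and 1973.5 (B cell) and 1258 and 1218 (T cell) at involution. Of 9 fibroblast and stroma markers 7 fell and then 6 rose, of 8 endothelium markers 5 fell and then 5 rose (1 fell), and of 9 luminal epithelium markers 1 rose and 5 fell and then 2 rose and 2 fell. Of 7 neutrophil markers 2 rose at lactation against pregnancy and 2 fell at involution against lactation. These neutrophil counts, and the luminal counts at involution against lactation, were near the shares of the whole array. The part of these cell types in the complement results was not tested either. At lactation the 10 brightest probe sets took up 9.09% and 7.53% of an array's signal, and 3.47% to 4.31% at the other stages, and whether this moved the lactation values was not tested.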

How the data were processed

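Signals of 9 MG-U74Av2 arrays were used, and all 9 arrays have a stage and a replicate number in the labels. The values the authors deposited are linear intensities, 1 per probe set and array, made with MAS5 according to the submitters' processing notes (version not stated), and each array had a 2% trimmed mean of 125.1. The labels and the methods give different amounts of cRNA per array. Here, 66 controls were dropped, each array was multiplied by 0.948 to 1.06 to give all arrays the same median, and log2 was computed with a floor of 20. Printed signals are scaled and unfloored. Of 12422 probe sets, the 9783 with a mean above 20 in at least 1 stage were tested with limma 3.58.1 in R 4.3.3 (lmFit, eBayes with a trend), by an F test and 6 contrasts with 1 spread for all arrays. Pearson's r over the probe sets was 0.96 to 0.981 between arrays of a stage and 0.792 to 0.952 otherwise. The number of arrays limits the precision. Of 10833 probe sets with 1 symbol, 10817 took their current symbol by Entrez ID from RefSeq's table of GRCm38.p6. A further 396 probe sets carry several symbols and 1193 are not listed. Where a gene on a list has several probe sets, the brightest was used. All member probe sets, the 12 other complement genes with the smallest F p-values among those called and the 3 genes most correlated with each member were named. The members and lists were chosen with earlier results of these data known. Scripts were tested on simulated data. Alternatives were other scalings, floors, filters and variance models, the replicate number as a block, and leaving out each array. A stage left with 1 array was assumed to vary like the others. Figures were drawn with matplotlib 3.10.9.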

Additional observations from a re-analysis of the deposited data

How the results depend on the processing

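Of the 21 complement differences called, 9 kept their call under all 20 alternatives, and over all alternatives the calls were the same in 378 cases, lost in 42 and reversed in 0. A floor of 50 left 1 complement probe set called at pregnancy against puberty and 480 of all probe sets at involution against puberty, and ended the calls of C1qa at lactation against pregnancy (adjusted p = 0.0690) and of C4 at pregnancy against puberty (0.0769) and at involution against pregnancy (0.0643). Deviations of arrays from their stage mean correlated with r of -0.153 to 0.049 where the replicate number was the same (12 pairs). Where the numbers differed, r was -0.112 to 0.153 (18 pairs). Outside puberty the deviations within a stage are mirror images, so the pairs are not independent and the opposite ranges are largely forced. No pair correlated strongly, but these ranges cannot decide whether the replicate numbers pair the arrays. With the replicate number as a block, 543 probe sets were called at pregnancy against puberty, 354 at involution against puberty and 335 at involution against pregnancy, against 1118, 732 and 697 without it, and complement probe sets numbered 0 in the first and 0 in the second. It ended the calls of C2 (adjusted p = 0.0550) and C4 (0.0665) at pregnancy against puberty, of C1qb (0.0762) and C3ar1 (0.106) at involution against puberty and of C1qb at involution against pregnancy (0.0590), and no other complement call. Replicate number 3 occurs only at puberty, so the block takes up that array and leaves the puberty contrasts to the other arrays. The log2 difference of C4 at pregnancy against puberty was -1.25 with the block and -1.25 without that array. The calls lost against puberty therefore cannot be read as an effect of pairing.

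Leaving out 1 array at a time gave 288 to 1104 probe sets at pregnancy against puberty, 2573 to 4089 at lactation against pregnancy, 245 to 798 at involution against puberty and 166 to 600 at involution against pregnancy (4035 at lactation against pregnancy with all arrays). Complement calls ranged over 0 to 2, 2 to 5, 1 to 3 and 1 to 5 in the same comparisons. These ranges take rises and falls together. Without the second involution array, the log2 difference of C1qa was -1.33 at involution against puberty and -1.30 against pregnancy. The complement call left at involution against puberty was then this fall, as the rises of C1qb and C3ar1 lost their calls. The mean log2 ratio of C1qb to C1qa at involution minus that on the other arrays, a value with no test, ranged over 1.32 to 2.11 and that of C1qc to C1qa over 1.35 to 1.62. The 7 differences that gained a call were C1qa at involution against puberty with a filter of 100 (adjusted p = 0.0429) and 6 without 1 array, all given above.

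Signs changed in 28 cases, none called with all arrays or in the alternative. On the deposited scale, the log2 difference at lactation against puberty was -0.11 for the dim C1qb probe set and -0.086 for Cfb, and with quantile normalization -0.024 and -0.10, with 0.0067 for bright C1qb at pregnancy against puberty and 0.032 for C4 at involution against lactation. With the block, Cfb was 0.013 at pregnancy against puberty. Without 1 array, pregnancy against puberty ranged over -0.10 to 0.070 for C1qa, -0.054 to 0.027 for bright C1qb, -0.26 to 0.062 for C1qc and -0.52 to 0.013 for Cfb, and lactation against pregnancy over -0.39 to 0.27 for C3ar1 and -0.36 to 0.64 for dim C1qb. Involution against lactation ranged over -0.36 to 0.565 for C1qa, -0.80 to 0.20 for dim C1qb, -0.73 to 0.29 for C4 and -0.26 to 0.68 for Cfb, lactation against puberty over -0.26 to 0.36 for Cfb and -0.49 to 0.51 for dim C1qb, and involution against puberty over -0.24 to 0.70 for Cfb. The cause of these changes was not tested.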
